A study of Mus musculus with 34 samples.

Results

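Resident cardiac macrophage genes are described here as a set of 10 genes taken by symbol, Lyve1, Timd4, Cd163, Mrc1, Folr2, F13a1, Csf1r, Adgre1, C1qa and Cx3cr1. All 10 were found among the 14552 genes of a first table of 10 libraries and among the 17406 genes of a second table of 24 libraries. The libraries are RNA-seq of the heart left ventricle (LV) of Swiss Webster (CFW) mice, in which myocardial infarction (MI) was made by tying off the left anterior descending artery for good. The first table holds hearts that received no injection, 3 from sham mice, 3 collected 4 h post-MI and 4 collected 24 h post-MI, and the second holds 2 sham hearts and hearts injected in the border zone of the infarct straight after ligation with modified mRNA (modRNA). This modRNA was either Luc, encoding firefly luciferase, or AC, an abbreviation that the labels do not spell out, with 4 Luc and 4 AC hearts at 4 h, 3 and 3 at 24 h, and 4 and 4 at 48 h post-MI. The sham mice of the first table carry a label of no operation while the study's text calls them sham operated, and those of the second carry the time of 4 h. No genotype, age or sex is given, and nothing but replicate letters or numbers tells the mice of a group apart.

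Cardiac resident macrophages live in the uninjured myocardium, where they clear debris from cardiomyocytes and other dying cells, and many of them keep their number by dividing in place. After an infarct, neutrophils and then monocytes enter the tissue, and monocytes turn into macrophages that share some genes with the resident cells. The members fall into 2 classes by role. The 6 resident-type genes are Lyve1, a hyaluronan receptor also made by lymphatic endothelium, Timd4, a receptor for phosphatidylserine on dying cells, Cd163, the scavenger receptor for haemoglobin bound to haptoglobin, Mrc1, the mannose receptor CD206, Folr2, a folate receptor, and F13a1, the A subunit of coagulation factor XIII, also made by monocytes and megakaryocytes. The 4 genes of most macrophages are Csf1r, the receptor for the growth factors CSF1 and IL-34, Adgre1, which encodes F4/80, C1qa, a chain of the complement protein C1q, and Cx3cr1, the fractalkine receptor, which monocytes also carry.

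Values are read counts normalized to library size (CPM) by the authors, and levels of different genes are not compared, since CPM is not scaled to gene length. Differences are limma log2 fold changes on log2(CPM + 1), which understate the change of genes near 1 CPM, and q is the Benjamini-Hochberg adjusted p over the genes that averaged 1 CPM or more, which were 12487 in the first table and 12555 in the second. All 10 members passed this filter in both, and a gene is called at q under 0.05. Folds are ratios of group means of CPM. Where groups are said to overlap or not, this describes the libraries only. Groups this small can fail to overlap by chance, and the share of all genes tested without overlap was not counted.

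On mm10 the members lie on 9 chromosomes. Lyve1 spans chr7:110850607-110862953 on the minus strand, Folr2 chr7:101839988-101857190 on the minus strand, Timd4 chr11:46810799-46844333 on the plus strand and Cd163 chr6:124304651-124330527 on the plus strand. Mrc1 spans chr2:14229414-14332023 on the plus strand, F13a1 chr13:36867178-37050244 on the minus strand and Cx3cr1 chr9:120048683-120068296 on the minus strand. Csf1r lies on the plus strand of chromosome 18, Adgre1 at chr17:57358686-57483529 on the plus strand and C1qa at chr4:136895916-136898844 on the minus strand. In RefSeq on GRCm38.p6, 7 members overlap another annotated RNA or pseudogene and 3 (Lyve1, Timd4 and C1qa) overlap none. The use of strand in read counting is not given in the sources used here, so reads of those overlapping genes could be counted with the 7.

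The uninjected libraries hold an estimated 12553519 to 18952669 reads each, taking a library's lowest value as 1 read, and the depth of the second table is unknown. AC hearts were marked by Asah1, which encodes acid ceramidase, with 5296 to 13703 CPM at 4 h against 23.9 to 27.2 CPM in Luc hearts, 104 to 305 against 22.0 to 24.7 CPM at 24 h, and 42.5 to 112 against 21.4 to 28.2 CPM at 48 h. Muscle content was high throughout, with 8 cardiomyocyte genes summing to between 19215 and 73645 CPM. Within the Luc hearts at 48 h, libraries 1 and 3 correlated with each other over all genes tested at 0.984 and so did libraries 2 and 4, against 0.945 to 0.969 across these pairs, and libraries 2 and 4 lay closer to the AC hearts of 48 h (0.97 to 0.981) than libraries 1 and 3 did (0.929 to 0.951). Member calls that rest on the Luc hearts at 48 h are therefore given without 1 or both of these pairs too. Values of marker lists and of other named genes at 48 h are given with all 4 Luc hearts alone. In bulk tissue, fewer cells of a type and less RNA per cell cannot be told apart.

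The first question was how the members stood in uninjected hearts post-MI. At 4 h none of the 10 was called against sham by limma, and none had an unadjusted p under 0.05, where 2.37% of all genes tested were called in either direction. Their log2 fold changes lay between -0.61 for Cx3cr1 and 0.26 for C1qa, with a median of -0.11 against -0.03 over all genes tested. Cx3cr1 was at 6.47, 8.27 and 7.28 CPM in sham hearts D, H and I and at 4.66, 3.16 and 5.88 CPM in hearts C, D and E at 4 h. Every heart at 4 h was thus under every sham heart for Cx3cr1, a log2 fold change of -0.61 (SE 0.33, limma q = 0.40), and the gene was called when libraries were weighted by their quality (array weights, limma q = 0.037).

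At 24 h post-MI the set split. F13a1 and Lyve1 rose, Cx3cr1, Folr2 and Timd4 fell, and the other 5 members were not called. The 2 that rose compare with 35.6% of all genes tested called higher, and the 3 that fell with 30.3% called lower, so neither share of the members exceeded that of genes at large. The median log2 fold change was -0.09 over the members and 0.04 over all genes tested.

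F13a1 was at 43.9, 26.0 and 31.3 CPM in sham hearts D, H and I and at 93.2, 72.0, 70.5 and 63.6 CPM in hearts C, D, G and H at 24 h. Its mean rose from 33.7 ± 9.22 CPM (SD, n = 3) to 74.8 ± 12.8 CPM (SD, n = 4), 2.22-fold (log2 fold change 1.14, SE 0.17, limma q = 0.00013). Every heart at 24 h exceeded every sham heart, and F13a1 stayed called without any 1 of the 10 libraries. Lyve1 was at 14.0, 8.75 and 9.0 CPM in the sham hearts and at 18.6, 27.3, 18.4 and 12.3 CPM at 24 h. Its mean rose 1.81-fold, from 10.6 ± 2.94 CPM (SD, n = 3) to 19.2 ± 6.18 CPM (SD, n = 4), with a log2 fold change of 0.78 (SE 0.24, limma q = 0.013). Heart H at 24 h lay under sham heart D, so the groups overlapped for Lyve1. Without sham heart H or sham heart I, Lyve1 was no longer called (limma q = 0.056 and 0.052).

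Folr2 was at 8.10, 4.72 and 5.07 CPM in the sham hearts and at 3.38, 2.85, 3.79 and 2.85 CPM in hearts C, D, G and H at 24 h. Its mean fell from 5.96 ± 1.86 CPM (SD, n = 3) to 3.22 ± 0.454 CPM (SD, n = 4), 1.85-fold lower (log2 fold change -0.70, SE 0.18, limma q = 0.0055). No heart at 24 h reached the lowest sham heart, and the call held without any 1 library. Cx3cr1 was at 3.41, 1.5, 6.81 and 2.97 CPM in hearts C, D, G and H at 24 h. Its mean of 3.67 ± 2.24 CPM (SD, n = 4) was 2.00-fold under that of sham hearts, 7.34 ± 0.900 CPM (SD, n = 3), with a log2 fold change of -0.95 (SE 0.31, limma q = 0.018). Heart G alone lay within the sham range, and without sham heart H Cx3cr1 was not called (limma q = 0.063). Timd4 was at 2.39, 1.33 and 2.60 CPM in sham hearts and at 1.99, 0.876, 0.765 and 0.609 CPM at 24 h. Its log2 fold change was -0.61 (SE 0.22, limma q = 0.030), heart C lay within the sham range, and the call was lost without sham heart D or I or without heart D, G or H at 24 h (limma q up to 0.12), with array weights (limma q = 0.081) and with the compared groups alone (limma q = 0.052).

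Among the members not called at 24 h, Cd163 stood nearest the threshold. It was at 15.3, 7.83 and 8.09 CPM in the sham hearts and at 3.15, 7.63, 6.65 and 3.88 CPM at 24 h, with no overlap between the groups (log2 fold change -0.85, SE 0.36, limma q = 0.054). Cd163 was called after rescaling by the median ratio to a mean library, after rescaling to equal totals and in a fit of the compared groups alone (limma q between 0.034 and 0.049), with replicate letters as a block (log2 fold change -0.94, limma q = 0.0024), and also without heart D or E at 4 h or heart D or G at 24 h (limma q between 0.032 and 0.038). Mrc1 had 22.2 ± 3.19 CPM (SD, n = 3) in sham hearts and 18.0 ± 5.39 CPM (SD, n = 4) at 24 h (log2 fold change -0.32, 95% interval -0.80 to 0.15), and it was called without heart G at 24 h (limma q = 0.043). The 3 common macrophage genes Csf1r, Adgre1 and C1qa had log2 fold changes of 0.28, 0.27 and 0.14, with 95% intervals of -0.08 to 0.64, -0.04 to 0.58 and -0.26 to 0.55. Csf1r ran from 27.5 to 33.0 CPM in sham hearts and from 30.2 to 51.7 CPM at 24 h, and its highest value was in heart C.

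Directly compared with 4 h, the hearts at 24 h had more F13a1 and Lyve1 and less Folr2 RNA, against 37.2% of all genes tested called higher and 26.7% called lower. F13a1 rose 3.02-fold, from 24.8 ± 1.92 CPM (SD, n = 3) at 4 h, where the 3 hearts lay between 22.8 and 26.6 CPM, with a log2 fold change of 1.55 (SE 0.17, limma q = 1.9e-05). Lyve1 had 12.3, 13 and 9.21 CPM at 4 h (log2 fold change 0.65, SE 0.24, limma q = 0.031) and Folr2 had 6.02, 3.97 and 5.30 CPM (log2 fold change -0.52, SE 0.18, limma q = 0.026). Both calls were lost without heart C or E at 4 h and without heart D at 24 h, Lyve1 also without heart C and Folr2 also without heart H at 24 h (limma q between 0.053 and 0.13). Lyve1 was lost under median-ratio rescaling (limma q = 0.069) and Folr2 with replicate letters as a block (limma q = 0.13). Conversely Cd163 was called without heart E at 4 h, and Timd4, Adgre1 or Cx3cr1 without heart C, D or G at 24 h in turn (limma q between 0.027 and 0.048). Without heart C at 4 h, F13a1 was the 1 member still called.

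**Figure D1:**
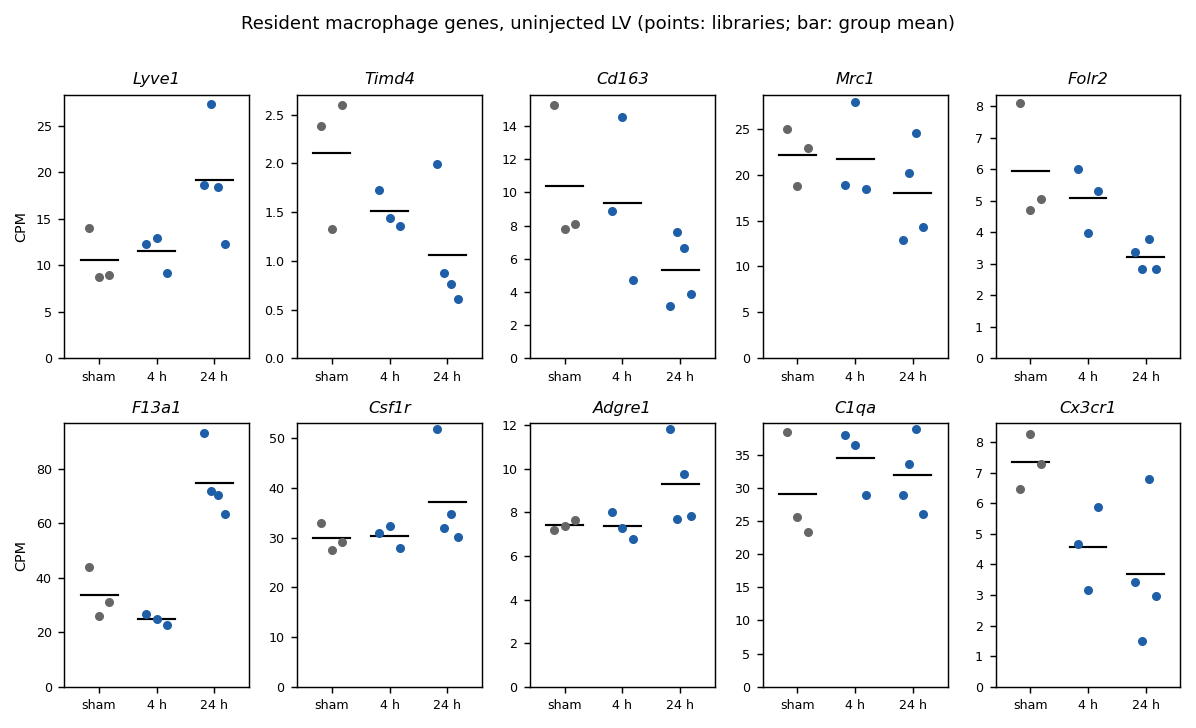
CPM (linear axis from 0) of the 10 members in uninjected LV, with a point per library for sham, 4 h and 24 h post-MI and a bar at the group mean. F13a1 at 24 h lies between 63.6 and 93.2 CPM, above all sham hearts, whereas Folr2 and Cd163 at 24 h lie under all sham hearts.

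RNA of cells that enter the infarct moved with these results. All 10 genes of a monocyte list, all 8 of a neutrophil list and all 8 of a pan-leukocyte list were called higher at 24 h than in sham hearts. The monocyte list (Ccr2, Ly6c2, Plac8, Chil3, Vcan, Ms4a4c, Ifitm6, Arg1, Fcgr1 and Cd14) summed to 25.2 to 32.3 CPM in sham hearts and to 316 to 794 CPM at 24 h. The neutrophil list rose from 1.46 to 1.92 CPM up to 326 to 1995 CPM, and the pan-leukocyte list, which includes Ptprc and Itgam, from 39.8 to 49.6 CPM up to 247 to 644 CPM. Cardiomyocyte genes summed to 46848 to 49668 CPM in sham hearts and to 19215 to 33664 CPM at 24 h, with 5 of 8 called lower and none higher. Lymphatic endothelial genes, which bear on Lyve1, summed to 57.2 to 71.8 CPM in sham hearts and 55.3 to 69.1 CPM at 24 h, and 2 of the 6 were called higher and 2 lower. Platelet genes, which bear on F13a1, summed to 1.13 to 2.93 CPM and 6.11 to 12.5 CPM, and both of the 2 tested rose. The part of these other cells in the values of the members was not tested.

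**Figure D2:**
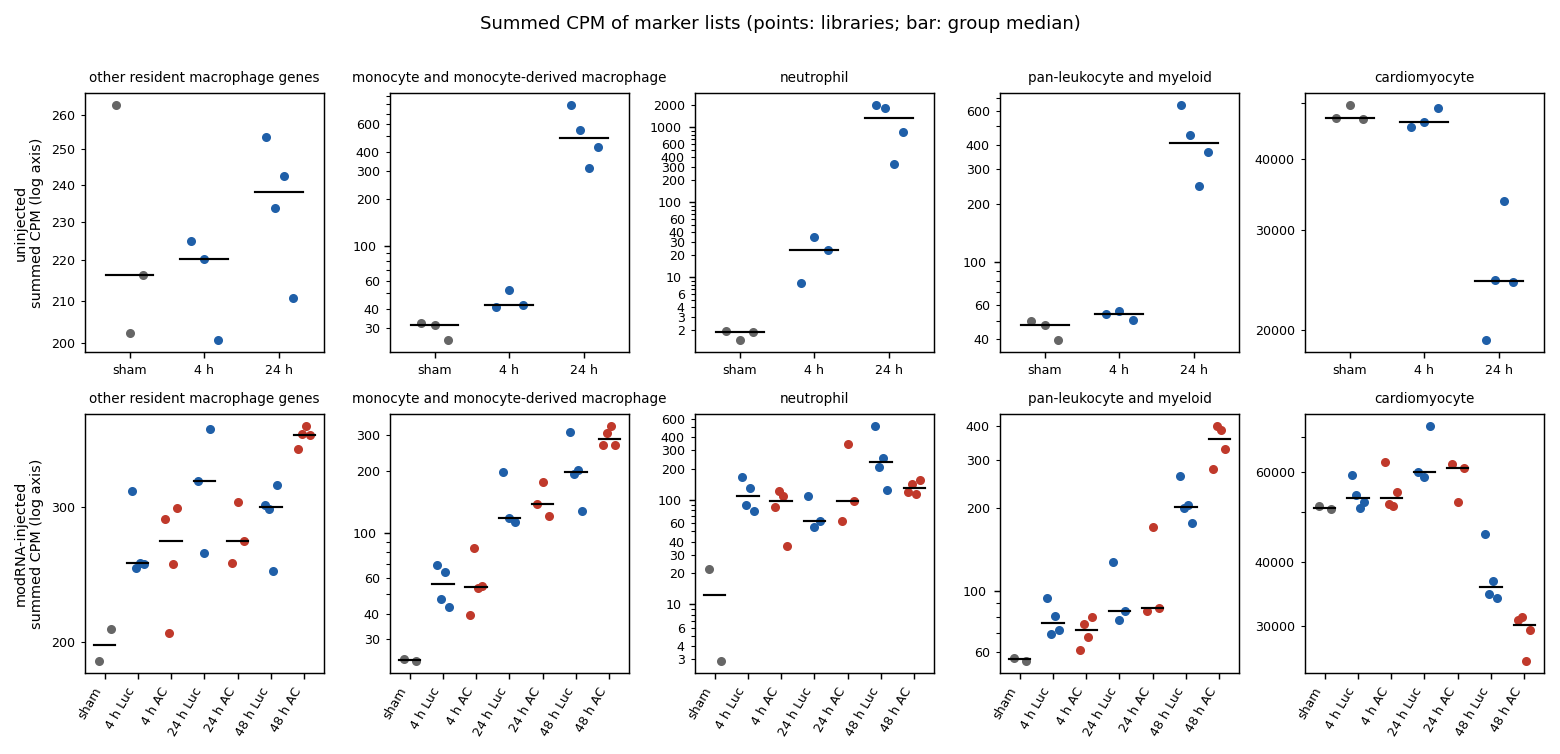
Summed CPM (log axis) of 5 marker lists in each library (points) with the group median (bar), for uninjected hearts in the upper row and sham or modRNA-injected hearts in the lower row. Neutrophil genes sum to 326 to 1995 CPM in uninjected hearts at 24 h and to 55.6 to 109 CPM in Luc hearts at 24 h.

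A further 20 genes linked to resident macrophages were read beside the members, with no member among them. Of the 15 tested in the first table, 7 rose and 2 fell at 24 h against sham, with a median log2 fold change of 0.39. Of the 4 with the highest mean CPM, Gas6, a bridging ligand for the uptake of dying cells, had a log2 fold change of -0.94 (limma q = 8.8e-05), Stab1, a scavenger receptor, 0.39 (limma q = 0.017), and C1qb and C1qc, the partner chains of C1qa, 0.46 (limma q = 0.053) and 0.0012 (limma q = 0.995). Of 13 ligands, partners and regulators of the members, 6 rose and 1 fell. Hmox1, the haem oxygenase that acts after Cd163 has taken up haemoglobin, had a log2 fold change of 5.91 (limma q = 1.1e-07), and Csf1, a ligand of Csf1r, 1.09 (limma q = 6.4e-05). Serping1, the inhibitor of C1, had -0.23 (limma q = 0.25), and Adam17, a sheddase, had -0.11 (limma q = 0.45).

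The second table asks the same of Luc hearts, with Luc modRNA in every infarct and 2 sham hearts as the reference. At 4 h none of the 10 members was called against sham by limma, with 1.55% of all genes tested called and with no member at an unadjusted p under 0.05. Their log2 fold changes lay between -0.21 for F13a1 and 0.41 for C1qa, with a median of 0.08 against 0.02 over all genes tested. C1qa was at 28.0 and 28.1 CPM in the sham hearts and at 52.3, 33.5, 32.5 and 35.2 CPM in Luc hearts 1 to 4, so that the groups did not overlap (SE 0.27, limma q = 0.51).

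At 24 h Luc hearts had more C1qa RNA than sham hearts and less Cx3cr1, F13a1 and Csf1r RNA, while 25.3% of all genes tested were called higher and 8.79% lower. Cx3cr1 was at 2.87 and 2.54 CPM in the sham hearts and at 0.292, 0.292 and 0.235 CPM in Luc hearts A, C and D. Its mean was 9.90-fold lower, 0.273 ± 0.0328 CPM (SD, n = 3) against 2.70 ± 0.233 CPM (SD, n = 2), with a log2 fold change of -1.54 (SE 0.37, limma q = 0.0028). The Luc values lie under 1 CPM in libraries of unknown depth, so the size of this fold is uncertain. All 3 Luc hearts lay under the sham hearts, and the call held without any 1 of the 24 libraries. C1qa was at 72.8, 46.0 and 66.1 CPM in these hearts, above both sham hearts, and rose 2.20-fold to 61.6 ± 14.0 CPM (SD, n = 3), with a log2 fold change of 1.08 (SE 0.28, limma q = 0.0050). It was lost without sham heart 1 (limma q = 0.051).

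F13a1 was at 41.5 and 27.5 CPM in the sham hearts and at 24.1, 11.7 and 15.4 CPM in Luc hearts A, C and D at 24 h (log2 fold change -1.0, SE 0.38, limma q = 0.044). The groups did not overlap, with all Luc hearts lower. This call was lost without sham heart 1 (log2 fold change -0.71, limma q = 0.33), Luc heart C (-0.77, q = 0.15) or Luc heart D (-0.96, q = 0.095) at 24 h, Luc heart 2 or AC heart 3 or 4 at 4 h, or AC heart 5 at 48 h (limma q = 0.050 to 0.051 for these last 4). Csf1r was at 28.1 and 38.1 CPM in the sham hearts and at 17.8, 16.9 and 26.7 CPM at 24 h (log2 fold change -0.68, SE 0.24, limma q = 0.030). All Luc hearts lay lower, and the call was lost without sham heart 2 (limma q = 0.23) or without Luc heart A or C at 24 h (limma q = 0.089 and 0.10). Csf1r was also lost with array weights (limma q = 0.065) and with the compared groups alone (limma q = 0.078), and F13a1 with no filter (limma q = 0.059) and with the 1 not subtracted (limma q = 0.065). Without sham heart 1, 2 members were called, Cx3cr1 and Csf1r.

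Adgre1 and Lyve1 were not called at 24 h. Their groups did not overlap, which groups this small can also show by chance. Adgre1 was at 8.51 and 7.90 CPM in sham hearts and at 4.92, 4.82 and 4.70 CPM in Luc hearts (log2 fold change -0.66, SE 0.34, limma q = 0.14), and it was called with the compared groups alone (limma q = 0.044). Lyve1 was at 13.5 and 18.6 CPM in sham hearts and at 33.4, 19.3 and 25.6 CPM in Luc hearts (log2 fold change 0.65, SE 0.28, limma q = 0.071), and it was called without Luc heart C of 24 h (limma q = 0.034) or Luc heart 1 or 4 of 48 h (limma q = 0.049 and 0.048). Cd163, Mrc1, Folr2 and Timd4 had log2 fold changes of -0.39, -0.46, -0.12 and 0.08 (limma q between 0.17 and 0.81). Mrc1 was at 19.6 and 20.7 CPM in sham hearts and at 17.0, 12.3 and 14.3 CPM in Luc hearts, and it was called under both rescalings (limma q = 0.050 and 0.043). Over all genes tested the median log2 fold change was 0.16, against -0.42 over the members, and median-ratio rescaling moved it to -0.01 and gave 2292 genes higher and 2043 lower where the authors' scaling gave 3172 and 1103, and equal-total rescaling gave 1836 and 2483 (median -0.11). No called member changed direction under either rescaling.

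Against Luc hearts at 4 h, Luc hearts at 24 h had less Cx3cr1 and Csf1r and more C1qa RNA, with 7.80% of all genes tested called lower and 24.5% higher. Cx3cr1 had 2.03, 2.91, 2.61 and 2.84 CPM in Luc hearts 1 to 4 at 4 h, all above the hearts at 24 h (log2 fold change -1.49, SE 0.31, limma q = 0.0010). Csf1r had 39.5, 32.5, 35.3 and 33.7 CPM at 4 h, again all above the hearts at 24 h (log2 fold change -0.78, SE 0.20, limma q = 0.0046). For C1qa the groups overlapped (log2 fold change 0.67, SE 0.23, limma q = 0.032), and its call was lost without Luc heart 2, 3 or 4 of 4 h or Luc heart A or D of 24 h and under both rescalings (limma q up to 0.14). Adgre1 and F13a1 were called lower in addition under both rescalings, with the compared groups alone and without AC heart C of 24 h (log2 fold changes of -0.71 and -0.79 without that heart, limma q = 0.042 and 0.012). Mrc1 was called lower too under both rescalings (-0.58 and -0.63, limma q = 0.039 and 0.049). Median-ratio rescaling gave 1968 genes higher and 1788 lower and equal-total rescaling 1708 and 1839, where the authors' scaling gave 3079 and 979.

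At 48 h the single member called against sham was C1qa, with 30.1% of all genes tested called in either direction. It was at 67.6, 39.1, 50.1 and 35.9 CPM in Luc hearts 1 to 4, each above the 2 sham hearts at 28.0 and 28.1 CPM (log2 fold change 0.72, SE 0.27, limma q = 0.044). That call did not hold without either sham heart, Luc heart 2 or 4 or AC heart 3 at 4 h, AC heart D at 24 h, Luc heart 1 or 3 or AC heart 2 or 5 at 48 h (limma q between 0.050 and 0.17), and Lyve1 (limma q = 0.038) was called in addition without Luc heart 4, as Mrc1 (limma q = 0.034) was without Luc heart 3. Without both Luc hearts 1 and 3 no member was called, and without both Luc hearts 2 and 4 the call of C1qa held and Lyve1 (log2 fold change 1.01, limma q = 0.0016) and Cx3cr1 (-0.91, limma q = 0.034) joined it. Equal-total rescaling gave 2502 genes higher and 1286 lower, where the authors' scaling gave 1714 and 2060.

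From 24 h to 48 h, Luc hearts gained RNA of F13a1, Cx3cr1, Mrc1, Cd163 and Csf1r, 5 of the 10 members, and no member was called lower. Over all genes tested 9.32% were called higher and 32.6% lower, and the median log2 fold change was 0.64 over the members and -0.25 over all genes. This balance depends on the scaling, with 2003 genes higher and 2086 lower under median-ratio rescaling (median -0.03) and 3255 higher and 945 lower under equal-total rescaling (median 0.18), in place of 1170 and 4088. The log2 fold changes of the 5 called members were higher than 0 under both rescalings. Hearts at 24 h, at 48 h and at 4 h with sham form 3 series of sample names, and whatever set those series apart cannot be told apart from time.

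F13a1 was at 65.6, 59.2, 41.6 and 50.3 CPM in Luc hearts 1 to 4 at 48 h, all above the 3 hearts at 24 h. It rose 3.17-fold, from 17.1 ± 6.38 CPM (SD, n = 3) to 54.2 ± 10.5 CPM (SD, n = 4), with a log2 fold change of 1.65 (SE 0.32, limma q = 0.00041). Mrc1 was at 17.0, 12.3 and 14.3 CPM in Luc hearts A, C and D at 24 h and at 35.9, 31.4, 20.8 and 32.5 CPM at 48 h. Its mean was 2.07-fold higher, with a log2 fold change of 0.99 (SE 0.21, limma q = 0.0011), and these groups did not overlap either. Csf1r was between 30.8 and 34.4 CPM, above all hearts at 24 h (log2 fold change 0.71, SE 0.20, limma q = 0.0069). Without Luc hearts 1 and 3 the log2 fold changes of F13a1, Mrc1 and Csf1r were 1.68, 1.10 and 0.67 (limma q up to 0.032). Without Luc hearts 2 and 4 they were 1.62, 0.88 and 0.74 (limma q up to 0.026).

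Cx3cr1 was at 1.09, 4.09, 0.862 and 2.93 CPM in Luc hearts 1 to 4 at 48 h, every value above those at 24 h (log2 fold change 1.22, SE 0.31, limma q = 0.0034). Hearts 2 and 4 held the higher values. Without hearts 2 and 4 the log2 fold change of Cx3cr1 was 0.63 (limma q = 0.11), and without hearts 1 and 3 it was 1.81 (limma q = 0.00013). Cd163 was at 12.4, 6.39 and 10.0 CPM at 24 h and at 24.0, 13, 14.5 and 14.5 CPM at 48 h, with no overlap (log2 fold change 0.73, SE 0.24, limma q = 0.020), and its call was lost without Luc heart C of 24 h (limma q = 0.15) or Luc heart 1 of 48 h (limma q = 0.073). Adgre1 and Lyve1 moved with the pairs as well. Without hearts 1 and 3 the log2 fold change of Adgre1 was 1.10 (limma q = 0.0033) and Lyve1 and C1qa were called lower (-0.63 and -0.68, limma q = 0.018 and 0.038), while Cd163 was not called (0.52, limma q = 0.13). Without hearts 2 and 4 the values of Adgre1, Lyve1 and C1qa were 0.05, 0.36 and -0.05 (limma q of at least 0.19). With all hearts Adgre1 had a log2 fold change of 0.58 (limma q = 0.11) and was called under both rescalings and without Luc heart 3.

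Promoter sequence was looked up for the members, and RefSeq on GRCm38.p6 gave it for 6 of the 10, Mrc1, F13a1, Cd163, Cx3cr1, Folr2 and Timd4. The stretch of 250 bases before each start was searched on both strands for GAGGAA, the core of the purine-rich box bound by PU.1, a transcription factor encoded by Spi1 that macrophages need. Mrc1 held 3 matches and F13a1 held 1, and the windows of the other 4 held none. The window before a further start of F13a1, at chr13:37049213, held none either. Of the 4 searched members that rose in Luc hearts from 24 h to 48 h, Mrc1 and F13a1 thus held it and Cd163 and Cx3cr1 did not. A match was present in 23.3% of the 32851 promoter windows of all genes, and a match is a description of the letters only. The matches are printed within 30 bases each, in capitals, where TTCCTC is the same motif read on the other strand. The Mrc1 stretches lie on the plus strand at chr2:14229228-14229257 and chr2:14229367-14229396, and the F13a1 stretch lies on the minus strand at chr13:37050293-37050322.
Mrc1, first stretch: cacatgTTCCTCtctccccTTCCTCctgtg
Mrc1, second stretch: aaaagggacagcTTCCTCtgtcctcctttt
F13a1: ttgaagctacagGAGGAAgagaggataaga

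Spi1 itself had a log2 fold change of 1.83 (limma q = 3.5e-06) in Luc hearts at 24 h against sham and of 0.05 (limma q = 0.85) from 24 h to 48 h. It is named here after its values were seen.

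The second question was whether AC modRNA changed the members relative to Luc modRNA at the same time post-MI. At 4 h none of the 10 was called by limma, none had an unadjusted p under 0.05, and 1 gene of all tested was called (0.00796%), which was Asah1. The members' log2 fold changes lay between -0.30 for Cx3cr1 and 0.13 for Cd163, and their 95% intervals between -0.89 and 0.67. At 24 h again none was called, with the same 0.00796% of all genes, although Mrc1, Cd163 and F13a1 had an unadjusted p under 0.05 (limma q of at least 0.97). Mrc1 was at 24.0, 24.5 and 19.0 CPM in AC hearts A, C and D and at 17.0, 12.3 and 14.3 CPM in Luc hearts, with no overlap and a log2 fold change of 0.60 (95% interval 0.13 to 1.07). AC heart C stood apart for F13a1, at 60.2 CPM against 18.7 and 17.9 CPM in AC hearts A and D, and for Cx3cr1, at 2.16 CPM against 0.438 and 0.585 CPM. That heart also had the highest neutrophil sum of the AC hearts at 24 h, 341 CPM against 63.0 and 97.9 CPM. Its monocyte sum was the highest of these too, 177 CPM against 138 and 121 CPM. Over all genes tested it correlated with the other hearts of 24 h at 0.954 to 0.963, against 0.972 to 0.984 among those. With the Luc hearts of 48 h it correlated at 0.961 to 0.968, against 0.916 to 0.959 for the other hearts of 24 h.

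**Figure D3:**
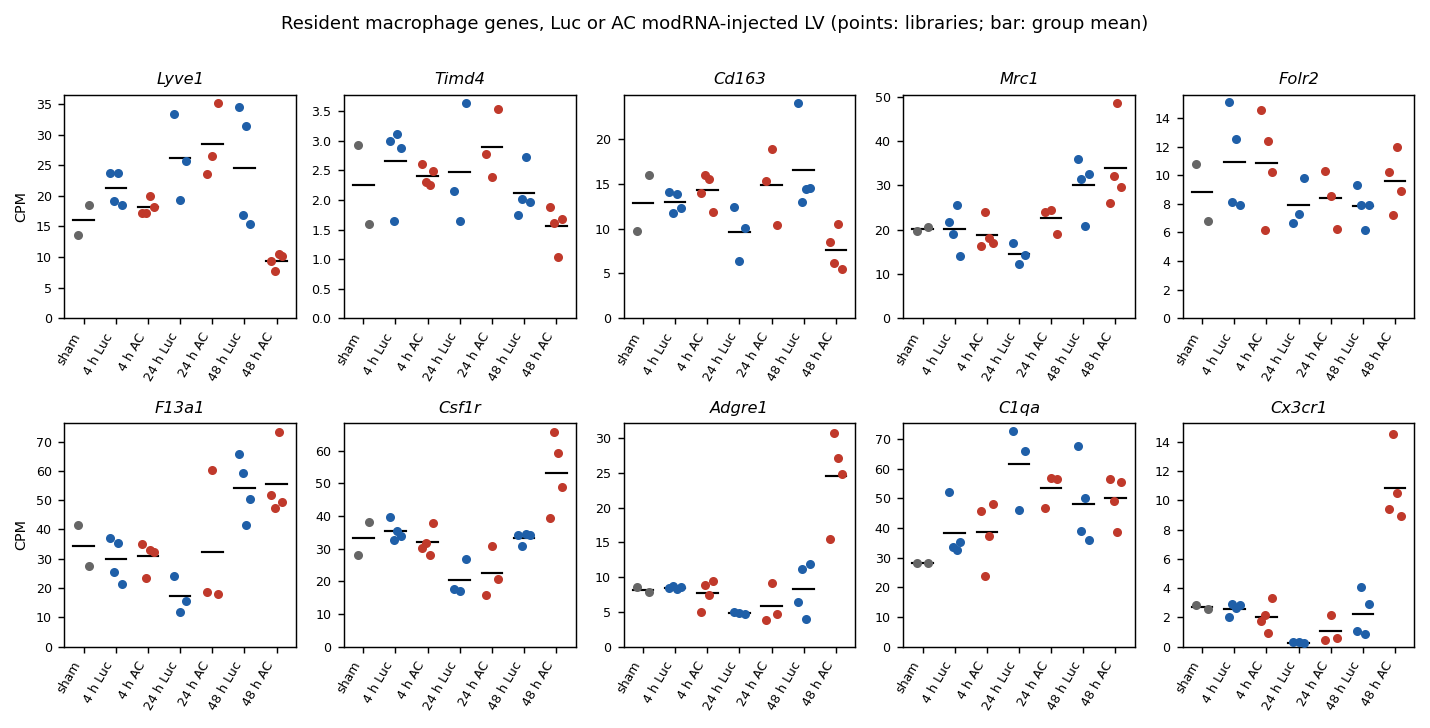
CPM (linear axis from 0) of the 10 members in sham hearts (grey) and in hearts injected with Luc (blue) or AC (red) modRNA at 4, 24 and 48 h post-MI, with a point per library and a bar at the group mean. At 48 h the 4 AC hearts lie under the Luc hearts for Lyve1 and Cd163 and above them for Cx3cr1, Adgre1 and Csf1r.

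At 48 h AC hearts had more RNA of Cx3cr1, Adgre1 and Csf1r and less of Lyve1 and Cd163 than Luc hearts, while 12.1% of all genes tested were called higher and 3.27% lower. The 3 that rose were all of the second class, and the 2 that fell were both resident-type genes. The 5 members not called were C1qa, Mrc1, Folr2, F13a1 and Timd4. For all 5 called members the AC and Luc libraries did not overlap. Genes called in the same libraries tend to show this, and the share of all genes tested without overlap was not counted. The median log2 fold change was 0.12 over the members and 0.14 over all genes tested.

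Cx3cr1 was at 9.41, 14.5, 10.5 and 8.90 CPM in AC hearts 1, 2, 4 and 5 and at 1.09, 4.09, 0.862 and 2.93 CPM in Luc hearts 1 to 4. Its mean was 4.83-fold higher, 10.8 ± 2.56 CPM (SD, n = 4) against 2.24 ± 1.54 CPM (SD, n = 4), with a log2 fold change of 1.97 (SE 0.28, limma q = 0.00014). Even the lowest AC heart was more than the highest Luc heart. Adgre1 was at 15.4, 30.8, 27.2 and 24.8 CPM in AC hearts and at 6.42, 11.2, 3.91 and 11.9 CPM in Luc hearts, 2.94-fold higher (log2 fold change 1.51, SE 0.27, limma q = 0.00063). Csf1r was at 39.3, 65.8, 59.2 and 48.7 CPM in AC hearts and at 34.0, 30.8, 34.4 and 34.2 CPM in Luc hearts, 1.60-fold higher (log2 fold change 0.63, SE 0.18, limma q = 0.022). Of these 3 genes, Csf1r lost its call without Luc heart 3 or AC heart 2 or 4 of 48 h (limma q = 0.056, 0.092 and 0.073) and under median-ratio rescaling (limma q = 0.059).

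Lyve1 was at 9.38, 7.66, 10.4 and 10.2 CPM in AC hearts and at 34.5, 16.8, 31.5 and 15.4 CPM in Luc hearts. Its mean fell from 24.6 ± 9.83 CPM (SD, n = 4) to 9.42 ± 1.26 CPM (SD, n = 4), 2.61-fold lower, with a log2 fold change of -1.22 (SE 0.21, limma q = 0.00063). The AC hearts at 48 h also lay under both sham hearts and every heart of 4 h and 24 h in this table. Cd163 was at 8.57, 6.12, 10.5 and 5.45 CPM in AC hearts and at 24.0, 13, 14.5 and 14.5 CPM in Luc hearts, 2.15-fold lower (log2 fold change -1.01, SE 0.22, limma q = 0.0044). Both calls held without any 1 of the 24 libraries, and with the replicate number as a block Lyve1, Cd163 and Csf1r were not called (limma q = 0.089, 0.10 and 0.17).

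The pairing of the Luc hearts at 48 h bears on these values. Without Luc hearts 1 and 3 the log2 fold change was 1.38 for Cx3cr1 (limma q = 0.013), 0.99 for Adgre1 (limma q = 0.044), -0.72 for Lyve1 (limma q = 0.050), 0.67 for Csf1r (limma q = 0.13) and -0.81 for Cd163 (limma q = 0.10), so that 3 of the 5 stayed called. Without Luc hearts 2 and 4 the values were 2.56, 2.04, -1.71, 0.60 and -1.22, and the call of Csf1r was lost (limma q = 0.055). Over all genes tested, 341 were called without hearts 1 and 3 and 3820 without hearts 2 and 4, against 1926 with all. Median-ratio rescaling gave 822 genes higher and 802 lower, where the authors' scaling gave 1516 and 410.

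The other members gave smaller differences at 48 h. C1qa was at 56.5, 49.2, 38.7 and 55.5 CPM in AC hearts, within the range of Luc hearts (log2 fold change 0.08, 95% interval -0.37 to 0.53). F13a1 was at 51.9, 47.4, 73.1 and 49.2 CPM (log2 fold change 0.03, 95% interval -0.58 to 0.64) and Mrc1 at 25.9, 32.1, 48.6 and 29.5 CPM (0.16, -0.25 to 0.57). Folr2 had 9.60 ± 2.01 CPM (SD, n = 4) in AC hearts and 7.83 ± 1.29 CPM (SD, n = 4) in Luc hearts (0.25, -0.23 to 0.74). Timd4 had 1.55 ± 0.368 CPM and 2.11 ± 0.420 CPM (-0.29, -0.67 to 0.10).

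Relative to Csf1r in the same library, a measure that the library's total does not enter, the ratio of Lyve1 to Csf1r was 0.239, 0.116, 0.176 and 0.210 in AC hearts 1, 2, 4 and 5 at 48 h and 1.01, 0.546, 0.917 and 0.451 in Luc hearts 1 to 4. The ratio of Cd163 to Csf1r was 0.0930 to 0.218 in AC hearts and 0.422 to 0.706 in Luc hearts. These 2 ratios did not overlap between the groups. That follows from Lyve1 and Cd163 being lower, and Csf1r higher, in every AC heart than in every Luc heart. It is therefore no separate support. In sham hearts the 2 ratios were 0.482 to 0.487 and 0.347 to 0.419. The ratios of the resident-type genes F13a1 and Mrc1 to Csf1r did overlap, at 0.721 to 1.32 in AC hearts and 1.21 to 1.93 in Luc hearts for F13a1 and at 0.487 to 0.821 and 0.604 to 1.05 for Mrc1. The ratio of Adgre1 to Csf1r was 0.392 to 0.509 in AC hearts and 0.114 to 0.362 in Luc hearts. CPM is not scaled to gene length, so these ratios compare libraries and not the levels of the genes.

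**Figure D4:**
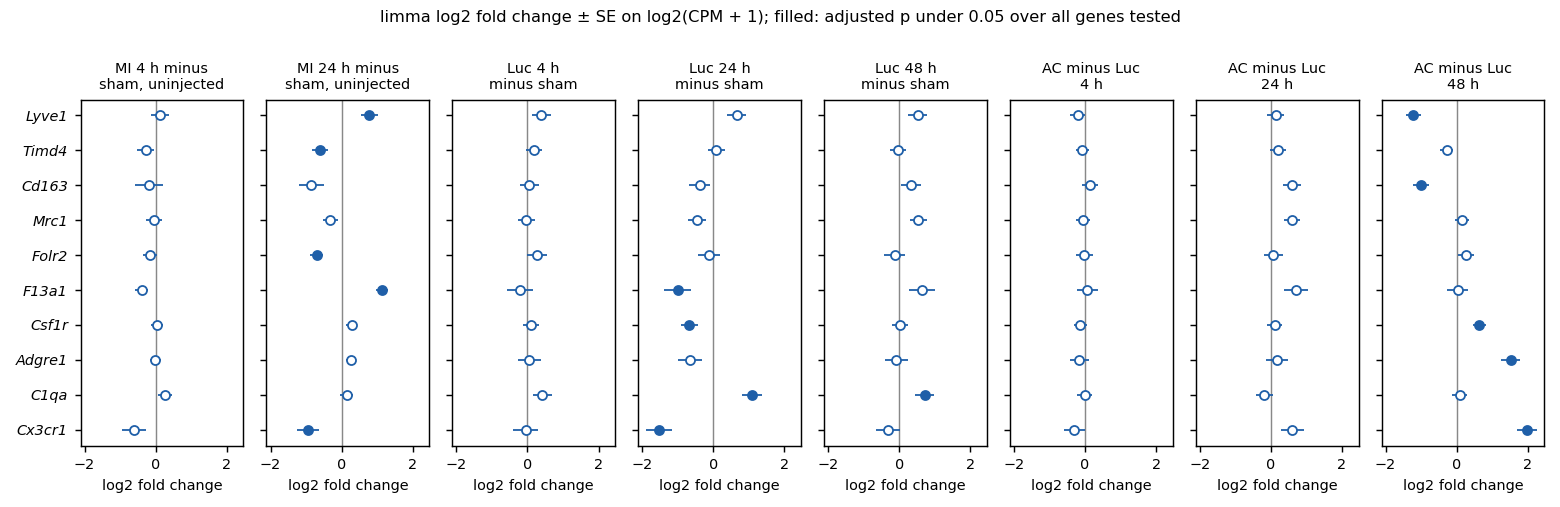
Log2 fold change on log2(CPM + 1) of each member (points) with its SE (bars) in 8 comparisons, filled where the limma q is under 0.05. The filled points at 24 h in uninjected hearts (F13a1 1.14, Cx3cr1 -0.95) differ from those of AC against Luc hearts at 48 h (Cx3cr1 1.97, Lyve1 -1.22).

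Whether the difference between AC and Luc hearts differed between times was tested as an interaction. Each time is also its own series of sample names, so time and series cannot be told apart here. From 4 h to 48 h it changed for 3 members, by 2.27 on the log2 scale for Cx3cr1 (SE 0.40, limma q = 0.0065), 1.68 for Adgre1 (SE 0.38, limma q = 0.016) and -1.14 for Cd163 (SE 0.32, limma q = 0.047), with 3.35% of all genes tested called. From 24 h to 48 h it changed for 2, by -1.60 for Cd163 (SE 0.34, limma q = 0.015) and -1.35 for Lyve1 (SE 0.33, limma q = 0.027), with 2.56% of all genes called. From 4 h to 24 h no member was called by limma, 1 (Mrc1) had an unadjusted p under 0.05, and 0.00796% of all genes were called. The change of Lyve1 from 4 h to 48 h was -1.01 (SE 0.30, limma q = 0.068). The change of Cd163 from 4 h to 48 h was lost without any of 13 of the 24 libraries, which include the 4 Luc hearts and 3 of the 4 AC hearts at 4 h, Luc heart D and AC heart A at 24 h, and Luc hearts 1 and 3 and AC hearts 2 and 5 at 48 h (limma q up to 0.11). That change of Cd163 was also lost under 5 settings, a pseudocount of 0.1, no filter, a mean of at least 5 CPM, equal-total rescaling and the 1 not subtracted (limma q between 0.053 and 0.065). The change of Lyve1 from 24 h to 48 h was lost without Luc heart C or D or AC heart D at 24 h, or Luc heart 1 or 3 or AC heart 2 at 48 h (limma q up to 0.097), and that of Cd163 without Luc heart C at 24 h (limma q = 0.052). Without both Luc hearts 1 and 3 of 48 h, Cx3cr1 from 4 h to 48 h was the 1 member with a called interaction (limma q = 0.049).

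RNA of other cell types differed between AC and Luc hearts at 48 h as well. Over all genes tested 12.1% were called higher and 3.27% lower. The counts of the lists below are with all 4 Luc hearts and were not taken without either pair. The pan-leukocyte list summed to 277 to 399 CPM in AC hearts and 177 to 262 CPM in Luc hearts, with 6 of 8 called higher, and the monocyte list to 267 to 333 CPM and 128 to 312 CPM, with 4 of 10 called higher. The neutrophil list summed to 114 to 154 CPM in AC hearts and 125 to 512 CPM in Luc hearts, with 2 of 8 called lower, and the cardiomyocyte list to 25695 to 31313 CPM and 34074 to 45422 CPM, with 2 of 8 called lower. Lymphatic endothelial genes, which bear on Lyve1, summed to 49.9 to 75.1 CPM in AC hearts and 46.3 to 64.3 CPM in Luc hearts, and 1 of 6 was called, higher. Endothelial genes summed to 403 to 556 CPM and 326 to 555 CPM, with none of 6 called, and platelet genes to 4.67 to 6.59 CPM and 3.70 to 7.65 CPM, with none of the 2 tested called. The part of these cell types in the values of the members was not tested.

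In Luc hearts at 24 h, beside the low Cx3cr1, Csf1r and F13a1, 6 of 10 monocyte, 8 of 8 neutrophil and 4 of 8 pan-leukocyte genes were called higher than in sham hearts. Their sums were 113 to 199, 55.6 to 109 and 78.2 to 127 CPM, against 23.6 to 24.2, 2.89 to 21.8 and 55.5 to 56.9 CPM in sham hearts. Of the monocyte list, Chil3 and Arg1 were under 0.05 CPM in both sham hearts. Cardiomyocyte genes summed to 58511 to 73645 CPM in these Luc hearts and to 50659 to 51317 CPM in sham hearts, with 1 of 8 called higher and 1 lower. By 48 h in Luc hearts all 10 monocyte, 8 neutrophil and 8 pan-leukocyte genes were called higher than in sham hearts, and cardiomyocyte genes summed to 34074 to 45422 CPM, with 2 of 8 called lower. The part of these cells was not tested here either.

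The list of 20 further resident macrophage genes had 17 tested in the second table. Against sham, 6 rose and 1 fell in Luc hearts at 24 h, and 8 rose and 1 fell at 48 h, with median log2 fold changes of 0.08 and 0.51. Between AC and Luc hearts none was called at 4 h or 24 h, and 5 rose and none fell at 48 h, with a median of 0.21. Of its 4 genes with the highest mean, Stab1 rose in AC hearts at 48 h (log2 fold change 0.81, limma q = 0.022), while Gas6, C1qb and C1qc had 0.21, 0.23 and 0.05 (limma q between 0.38 and 0.88). In Luc hearts at 24 h C1qb and C1qc had log2 fold changes of 1.2 (limma q = 0.00068) and 1.08 (limma q = 0.0014) against sham, beside 1.08 for C1qa, so the 3 chains of C1q rose together there.

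Of the 13 ligands, partners and regulators, 9 rose and 1 fell in Luc hearts at 24 h against sham, 5 rose and none fell at 48 h, and from 24 h to 48 h 2 rose and 7 fell. Csf1, the ligand of Csf1r, had a log2 fold change of 2.94 (limma q = 9.6e-05) at 24 h against sham and of -2.0 (limma q = 0.00061) from 24 h to 48 h. Hmox1 had 3.53 (limma q = 6.9e-06) at 24 h and Serping1 1.15 (limma q = 0.0003), whereas C1s1, a protease of the C1 complex, had 0.57 (limma q = 0.058). Between AC and Luc hearts at 48 h 3 rose and none fell, and Serping1, Hmox1, Csf1 and C1s1 were not among them. Cx3cl1, the ligand of Cx3cr1, which is named after its values were seen, had a log2 fold change of 0.82 (limma q = 0.0049) between AC and Luc hearts at 48 h.

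Genes whose course was most like that of a member were found by the root mean square difference of log2(CPM + 1), each gene taken relative to its sham mean, over the MI libraries of a table. For Lyve1 these were Eva1c, Baiap2 and Atp7a in the 7 uninjected MI hearts, at 0.17 to 0.19, and Klhl41, Acot2 and Acsf2 in the 22 modRNA-injected hearts, at 0.28 to 0.30. For Csf1r they were Tmc6, Ust and Dock11 at 0.10 to 0.13, and Elk3, Stard4 and Cyb561a3 at 0.21 to 0.23. None of these 12 genes was among the 3 nearest of both members or of 1 member in both tables. Among the other members, Adgre1 was nearest to Csf1r in both tables, at 0.10 and 0.46. Nearest to Lyve1 were Csf1r at 0.52 in the uninjected hearts and Timd4 at 0.51 in the injected hearts, and farthest from it in both was Cx3cr1, at 1.56 and 1.62.

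Both tables have hearts at 24 h post-MI, normalized separately and not compared with each other. Cx3cr1 was called lower than sham in both, with log2 fold changes of -0.95 and -1.54. F13a1 was called in both with opposite signs, 1.14 in uninjected hearts and -1.0 in Luc hearts. Lyve1 had 0.78 and 0.65 and was called in the uninjected hearts alone, as were Folr2, with -0.70 and -0.12, and Timd4, with -0.61 and 0.08. Cardiomyocyte genes summed to 19215 to 33664 CPM in uninjected hearts at 24 h (sham 46848 to 49668 CPM). They summed to 58511 to 73645 CPM in Luc hearts at 24 h (sham 50659 to 51317 CPM). The sample names of injected hearts at 24 h carry the letters Br, which no other sample names carry. The difference between the tables was not tested. Injection, sham group, the tissue sampled and library preparation cannot be told apart there.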

How the data were processed

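RNA-seq of 34 LV libraries was read from 2 deposited tables. The authors aligned the reads to mm10 with STAR, counted them per RefSeq gene in Partek by an expectation-maximization step and normalized the counts to TMM-scaled CPM before the files were deposited. That account is given for the uninjected hearts, and the processing of the second table is not given in the sources used here. The second table holds CPM plus 1, and this 1 was subtracted. The values carry no reads, so depth in the first table was estimated by taking the lowest value of a library as 1 read (0.0313 to 0.0479 CPM), and between 83.0% and 84.1% of values below 60 such reads were whole within 0.05 reads, too few for a count test. Between 767 and 1652 genes are at 0 per library of the second table.

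Groups were taken from the sample labels. Genes averaging 1 CPM or more were tested in limma 3.58.1 (R 4.3.3) on log2(CPM + 1), with a mean-variance trend and 1 fit per table over all its groups, and p-values were adjusted by Benjamini-Hochberg over all genes tested. The study's text gives the 10 uninjected libraries as pieces of the ischemic area, or its equal in sham, of separate hearts. For the second table nothing beyond a letter or number says that libraries came from separate mice, and p-values there measure the spread between these libraries, which may be in part technical. Interactions were contrasts of contrasts in the same fit. Comparisons with sham share the sham hearts of their table, and those with Luc share the Luc hearts. Alternatives were a pseudocount of 0.1, no filter, a mean of at least 5 CPM, no mean-variance trend, library weights (array weights), rescaling by median ratios or to equal totals, the compared groups alone, the 1 left in the second table, a replicate block, and each library left out. Removing the pairs of Luc hearts at 48 h was chosen after seeing the data. The method was tested on simulated data. Each member is described in full, the other lists by counts and by their genes with the highest mean, and the genes most like a member for Lyve1 and Csf1r. The members and the lists were chosen with earlier results of these data known. Promoter sequence is from RefSeq. Tables were handled in Python 3.11 with pandas 2.3.3.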

Additional observations from a re-analysis of the deposited data

Results flagged for a closer look

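Each member was checked in each group of 4 hearts, 50 checks in all, and in 4 of them 1 library lay far from the rest, where chance alone gives about 1 in 20. Timd4 was at 1.65 CPM in Luc heart 2 at 4 h, where the others had 2.87 to 3.11 CPM. C1qa was at 52.3 CPM in Luc heart 1 at 4 h, where the others had 32.5 to 35.2 CPM. Cd163 was at 24.0 CPM in Luc heart 1 at 48 h, where the others had 13 to 14.5 CPM, and Csf1r was at 30.8 CPM in Luc heart 2 at 48 h, where the others had 34.0 to 34.4 CPM.

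The difference between AC and Luc hearts itself differed between times, which are also separate series of sample names, for 4 members by limma. From 4 h to 48 h it changed by 2.27 for Cx3cr1 (adjusted p = 0.0065), by 1.68 for Adgre1 (adjusted p = 0.016) and by -1.14 for Cd163 (adjusted p = 0.047, over 0.05 under 5 settings and without any of 13 libraries) on the log2 scale, and from 24 h to 48 h by -1.60 for Cd163 (adjusted p = 0.015) and by -1.35 for Lyve1 (adjusted p = 0.027). At 48 h the direction was the same in all 4 AC hearts against all 4 Luc hearts for each of the 4 genes. These genes were picked by their calls in the same libraries, so this is no separate evidence.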

How the results depend on the processing

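Of 950 values of called members under the alternatives, 847 kept their side of the threshold and 103 did not. None changed direction, but in many of them the log2 fold change could not move, as it is a difference of group means. Another filter, no mean-variance trend, the compared groups alone or leaving out a library of another group alter only its SE and q. Of the 950 values, 632 came from fits with 1 library left out. The number of members called at 4 h against sham in uninjected hearts went from 0 to 1 with array weights, and at 24 h against sham from 5 to 3 with a mean of at least 5 CPM, under which fewer members were tested. Luc hearts at 48 h against sham had 1 member called, and 0 with no filter, array weights, the 1 not subtracted, the compared groups alone, the replicate block or without Luc hearts 1 and 3, but 2 with equal-total rescaling and 3 without Luc hearts 2 and 4. Luc hearts at 24 h against 4 h had 3, and 6 with array weights and 5 with median-ratio rescaling, equal-total rescaling or the compared groups alone. AC against Luc at 48 h had 5 and 3 without Luc hearts 1 and 3, and the 4 members with an interaction became 1 without that pair. The cause of these changes was not tested. Leaving out 1 library gave 3 to 6 members at 24 h against sham in uninjected hearts, 1 to 4 against 4 h, and in Luc hearts 2 to 5 at 24 h and 0 to 2 at 48 h against sham and 2 to 5 at 24 h against 4 h. Same-numbered hearts deviated from their group means with correlations of -0.21 to 0.20 between AC and Luc at 48 h and -0.14 to 0.25 at 4 h. Over all pairs of groups that share numbers they ran from -0.26 (sham and Luc at 48 h) to 0.55 (AC at 4 h and 48 h) in the second table and from -0.06 to 0.34 in the first. No comparison of the report with 3 or more shared numbers had every correlation over 0.1, so the numbers and letters were not taken to pair the hearts. With the replicate block, 5 members were called in uninjected hearts at 24 h against 4 h instead of 3, with Cd163, Cx3cr1 and Mrc1 gained and Folr2 lost, and Cd163 was gained at 24 h against sham. AC against Luc at 48 h had 2 (Cx3cr1 and Adgre1) instead of 5, with Lyve1, Cd163 and Csf1r lost. The block could not be fitted where the groups share no number, as in Luc hearts at 24 h against sham, 4 h or 48 h. With 2 sham hearts in the second table and 3 in the first, each sham heart weighs heavily, and Timd4 in uninjected hearts at 24 h rests on few reads. Cx3cr1 in Luc hearts at 24 h lay under 1 CPM.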
